A study of Mus musculus with 26 samples.

Results

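Gliomas that had lost Notch1 were compared with gliomas that kept it, in 12 of the 26 RNA sequencing libraries of the series. The 12 libraries, 6 labelled Notch1-/- and 6 control, were chosen by their titles. All tumours, controls included, arose in mice with PDGF as the oncogene and loss of Trp53 (PDGF+Trp53-/-). Control tumours kept Notch1, Notch2 and Rbpj, and the Notch1-/- tumours lacked Notch1 only among these. The other genotypes of the series, 5 Notch2-/-, 5 Notch1-/-Notch2-/- and 4 Rbpj-/- libraries, entered the same fit and are described here only where Notch1-/- was compared with them directly. Cells came from early gliomas cut out of the brain and were sorted for GFP, which the Rosa-CAG::GFP reporter makes in cells in which Cre has acted. The labels name no Cre line or vector and no age, and do not say whether libraries came from separate animals. The p-values therefore measure the spread between these libraries, which may in part be technical.

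Notch receptors are cut after a ligand on a neighbouring cell binds them, and the freed intracellular part enters the nucleus, where it joins Rbpj and Mastermind proteins to switch on target genes. Among these targets are the Hes and Hey repressors, which hold down proneural genes and keep neural progenitors undifferentiated, and Nrarp, which limits the signal. In the developing brain the pathway also favours glial and astrocyte fates over neuronal ones. PDGF-driven gliomas carry the profile of oligodendrocyte precursors, the dividing glial cells that PDGF supports. The question the comparison addresses is what expression in such tumour cells looks like when Notch1 is missing.

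Counts per library added up to between 37613009 and 46703709 in the controls and between 31593287 and 42378306 in Notch1-/-. The labelled cell type was checked on precursor markers, which were high everywhere: Pdgfra, the PDGF receptor, ranged from 3037 to 5818 CPM (counts scaled to the size of the library) in controls and from 1998 to 5936 in Notch1-/-, and Olig2, a lineage factor, from 478 to 548 and from 465 to 674. On principal components of all genes tested, the first axis (44.0% of the variance) had control replicates 2, 3, 5 and 6 at one end. At the other were 5 Notch1-/- libraries, and control replicates 1 and 4 and Notch1-/- replicate 2 lay between. Notch1-/- replicate 2 stood apart on the second axis (21.7%). Control replicate 1 held Xist and no Ddx3y, and control replicate 6 held both, so they were also left out together as an alternative. Markers of microglia and of endothelium, cells that a sort for tumour cells should leave out, were present in every library and lower in Notch1-/-. The mean log2 CPM of the 21 microglia and macrophage genes lay between 3.45 and 5.39 in controls and between 0.43 and 2.72 in Notch1-/-, without overlap. Their summed level was 405 to 1682 CPM in controls and 65.2 to 306 CPM in Notch1-/-. The part of these cells in the other differences was not tested beyond a fit with the microglia and macrophage level as a covariate, whose counts and medians are given for the gene lists below.

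The level of the targeted gene itself was not lower. Notch1 had a lowest, median and highest value of 71.2, 97.4 and 148 CPM in controls and of 88.2, 142 and 214 CPM in Notch1-/-. The groups overlapped, and the log2 fold change of 0.40 ± 0.24 (SE) did not pass the test (adjusted p = 0.204). The deposited value counts the whole gene, which lies at chr2:26457902-26503822 in GRCm38.p6, and the labels do not say which exons the allele removes, so the count is no check of the deletion. Notch2 (0.24 ± 0.14, adjusted p = 0.218), Rbpj (0.21 ± 0.17, adjusted p = 0.363) and Trp53 (0.23 ± 0.16, adjusted p = 0.262) also did not pass. Trp53 still had 8.98 to 15.2 CPM in controls, and as with Notch1 a whole-gene count does not show an exon deletion.

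Loss of Notch1 went with a wide difference in expression. Of 15617 genes tested with edgeR's quasi-likelihood test, 4174 passed an adjusted p of 0.05 (26.7%), of which 2058 rose (13.2%) and 2116 fell (13.5%) in Notch1-/-. The median log2 fold change over all genes was 0.03. Large differences were mostly falls: 412 genes rose by at least 2-fold (2.64%) and 987 fell by at least 2-fold (6.32%), and at 4-fold the counts were 90 (0.576%) and 480 (3.07%). The 6 libraries of each genotype did not overlap for 1196 genes (7.66%). With the microglia and macrophage level of each library as a covariate, 12 genes passed, 5 higher and 7 lower, and 9 of the 4174 kept their call. That level did not overlap between the genotypes. Without control replicates 1 and 6 the count was 2064, of which 2044 were among the 4174.

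**Figure D1:**
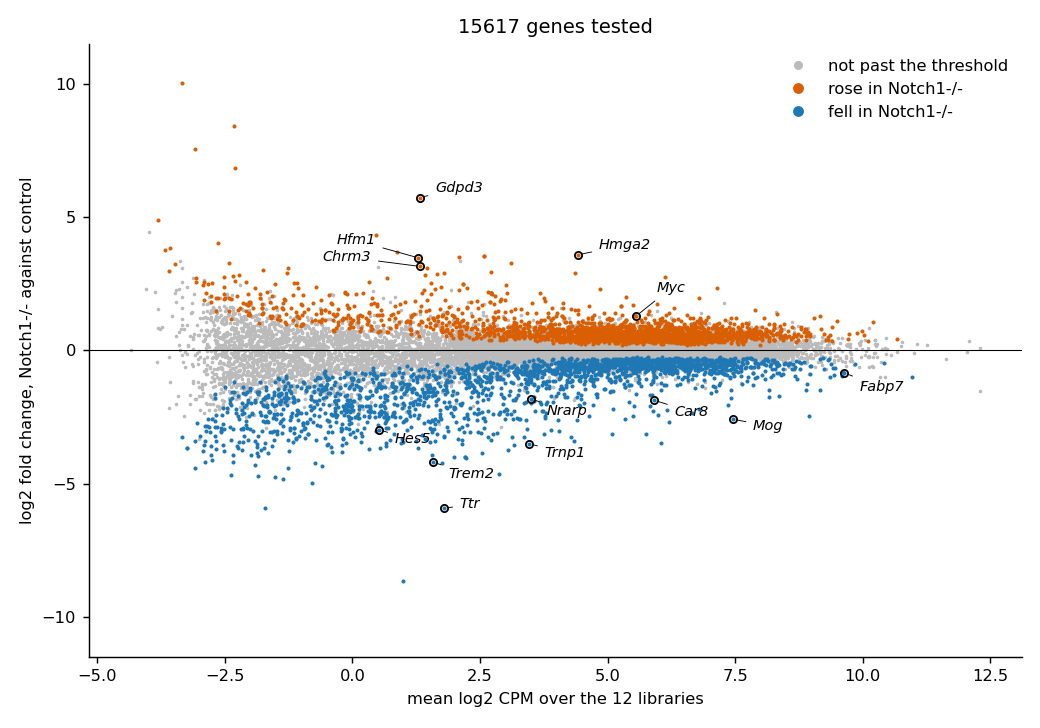
Log2 fold change of Notch1-/- against control (vertical axis) by mean log2 CPM over the 12 libraries (horizontal axis) for the 15617 genes tested. Each point is a gene, orange where it rose, blue where it fell and grey where it did not pass. Large falls (480 of at least 4-fold) outnumber large rises (90), and 13 genes described in the text are circled.

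Several Notch targets fell and others rose. Of 14 tested genes on a list of Notch targets, 6 fell (Hes5, Nrarp, Hey1, Fabp7, Notch3 and Hes1) and 3 rose (Myc, Ccnd1 and Sox9), and the median log2 fold change was -0.57 against 0.03 over all genes. These counts stand beside 13.5% of all genes that fell and 13.2% that rose. With the microglia and macrophage level as a covariate 1 of the 14 fell, 0 rose and the median was -0.14. In bulk libraries such as these, fewer cells of a type and less RNA per cell cannot be told apart.

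Hes5, a repressor of proneural genes that Rbpj switches on, fell furthest. Its lowest, median and highest values were 2.27, 3.43 and 7.97 CPM in controls and 0.312, 0.483 and 0.705 CPM in Notch1-/-. Each Notch1-/- library was below each control library. The log2 fold change was -2.99 ± 0.39, which is 7.93-fold lower (adjusted p = 5.85e-05). Leaving out any 1 of the 12 libraries gave adjusted p-values from 5.61e-05 to 0.000302. Hes5 was 1 of the 9 genes that kept their call with the microglia and macrophage level as a covariate (log2 fold change -3.72, adjusted p = 0.0384). With the endothelial level as a further covariate it did not pass (adjusted p = 0.113).

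Nrarp, which Notch induces and which in turn restrains Notch signalling, had 16.4, 21.7 and 35.2 CPM in controls (lowest, median, highest) and 1.78, 7.29 and 10.1 CPM in Notch1-/-. The groups did not overlap. Nrarp fell by 1.82 on the log2 scale (SE 0.30, 3.53-fold, adjusted p = 0.000402). With the microglia and macrophage level held fixed the log2 fold change was -2.92 and the adjusted p 0.0795. Hey1, a repressor related to Hes5, had 25.3, 29.9 and 41.7 CPM in controls and 12.7, 13.0 and 27.5 CPM in Notch1-/-, where replicates 2 and 4 were the 2 highest and replicate 2 reached into the control range. It fell by 0.99 (SE 0.19, adjusted p = 0.00099).

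Hes1, the third repressor of this kind, had 11.9, 13.8 and 21.3 CPM in controls and 1.09, 6.58 and 11.6 CPM in Notch1-/-. The groups did not overlap, but the Notch1-/- libraries were widely spread. The log2 fold change was -1.19 ± 0.37 (adjusted p = 0.0229). The call was lost without control replicate 1 (0.0518), Notch1-/- replicate 1 (0.0524) or Notch1-/- replicate 6 (0.0554), and without control replicates 1 and 6 together (0.0959). Fabp7, a fatty acid binding protein of radial glia, had 852 to 1402 CPM in controls and 250 to 893 CPM in Notch1-/-, with the lowest value in Notch1-/- replicate 2. It fell by 0.84 (SE 0.23, adjusted p = 0.0118), and the adjusted p was 0.0737 without control replicates 1 and 6. Notch3, a receptor that is itself a target, fell by 1.40 (SE 0.43, adjusted p = 0.0215), and its call was lost without control replicate 5 (0.0778).

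**Figure D2:**
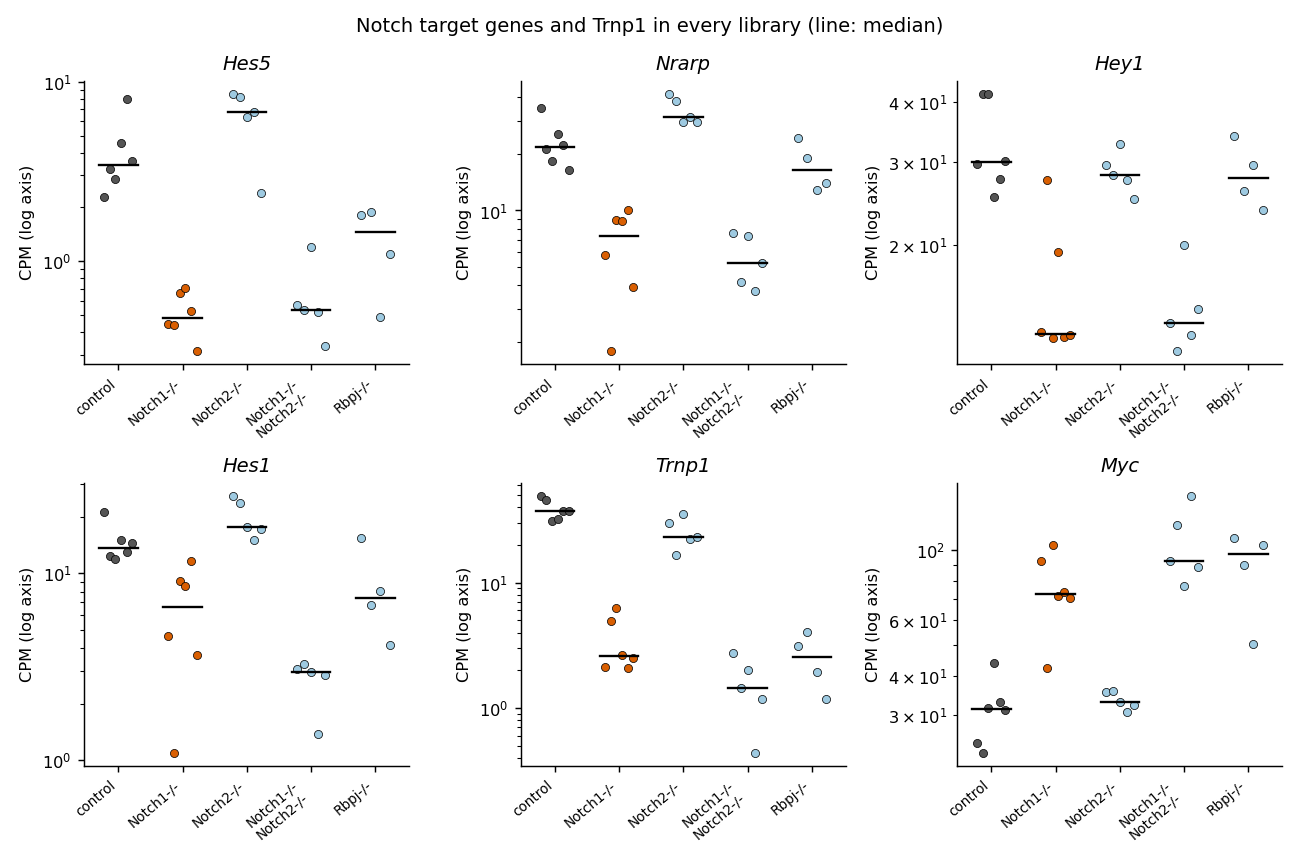
Expression of Hes5, Nrarp, Hey1, Hes1, Trnp1 and Myc in each of the 26 libraries by genotype, in CPM on a log axis; each point is a library and each line the median of its genotype. For Hes5, Nrarp, Hes1 and Trnp1 all 6 Notch1-/- libraries (orange) lie below all 6 controls (grey), and for Myc 5 of the 6 Notch1-/- libraries lie above the highest control.

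The promoters of 3 targets that fell are shown because Rbpj, the factor that Notch1 acts through, binds DNA at the core TGGGAA. RefSeq's table for GRCm38.p6 gave a promoter (250 bases before the start of the gene to 50 after it) for 4 of the 6 targets that fell. TGGGAA and its reverse complement TTCCCA were searched, and a match is in capitals; the 2 spellings cannot overlap one another at the same bases. Hes5 (chr4:154960673-154960972, + strand) has a match 226 bases before the start and another 82 bases before it, on opposite strands. Fabp7 (chr10:57784673-57784972, + strand) has 1 match, 249 bases before the start, and Nrarp (chr2:25180508-25180807, + strand) has none in this window.
Hes5: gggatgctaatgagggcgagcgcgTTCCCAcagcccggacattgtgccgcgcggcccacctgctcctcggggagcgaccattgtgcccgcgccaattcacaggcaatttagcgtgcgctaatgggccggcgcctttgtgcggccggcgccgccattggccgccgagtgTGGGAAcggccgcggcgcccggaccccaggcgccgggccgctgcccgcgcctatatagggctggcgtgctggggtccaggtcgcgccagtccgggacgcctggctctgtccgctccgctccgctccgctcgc
Fabp7: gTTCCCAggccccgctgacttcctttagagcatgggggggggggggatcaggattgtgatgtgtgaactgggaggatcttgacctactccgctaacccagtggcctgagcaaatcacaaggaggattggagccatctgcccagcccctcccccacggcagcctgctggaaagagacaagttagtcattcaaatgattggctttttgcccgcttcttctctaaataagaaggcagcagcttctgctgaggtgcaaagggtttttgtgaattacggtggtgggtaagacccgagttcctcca
Nrarp: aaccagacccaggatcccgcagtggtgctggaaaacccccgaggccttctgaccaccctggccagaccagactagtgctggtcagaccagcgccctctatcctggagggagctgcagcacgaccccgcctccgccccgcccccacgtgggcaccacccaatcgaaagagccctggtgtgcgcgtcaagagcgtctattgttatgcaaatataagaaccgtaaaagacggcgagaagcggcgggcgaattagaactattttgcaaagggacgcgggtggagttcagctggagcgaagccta
Of 32851 promoters in the table, 25.6% hold at least 1 match and 3.79% at least 2. A match is a description of letters and shows no binding, and the window without a match says nothing of Rbpj at Nrarp. Notch3, the fourth with an entry, has no match.

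Myc, a transcription factor of cell growth that Notch activates in several tissues, went the other way. It had 22.7, 31.3 and 43.8 CPM in controls and 42.4, 72.8 and 104 CPM in Notch1-/-, where only Notch1-/- replicate 2 was inside the control range. Myc rose by 1.29 on the log2 scale (SE 0.21, 2.44-fold, adjusted p = 0.000291). Ccnd1, which encodes cyclin D1, rose by 1.08 (SE 0.29, adjusted p = 0.00966). Its values were 626 to 1435 CPM in controls and 664 to 3317 CPM in Notch1-/-, and the lowest Notch1-/- value was again replicate 2. Its fold change turned to -0.19 with the microglia and macrophage level as a covariate (adjusted p = 0.877). Sox9, a glial progenitor factor, stood just inside the threshold at 1.02 ± 0.38 (adjusted p = 0.049) and lost the call in 10 of 12 fits that each left out a library (highest 0.112, without control replicate 3). It kept it only without control replicate 4 or without Notch1-/- replicate 2.

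Among 36 genes for ligands, receptors, modifying enzymes and nuclear partners of the pathway, 7 rose and 3 fell, with a median log2 fold change of 0.12. Together these 10 are a share close to the 26.7% called among all genes, so the members are described singly. In the fit with the microglia and macrophage covariate 0 of the 36 passed and the median was -0.01. The count of rises was 3 or 4 without control replicate 2, 3 or 6 or Notch1-/- replicate 3. The count of falls was 5 without control replicate 4 and 6 without Notch1-/- replicate 5, and without control replicates 1 and 6 there were 2 of each. Of the ligands, Dll4, known from sprouting vessels, fell by 2.37 (SE 0.40, adjusted p = 0.000449) from 0.378 to 1.58 CPM in controls to 0.0698 to 0.235 CPM in Notch1-/-, with no overlap. Markers of endothelium were lower in the same libraries, as given further on, and the Dll4 difference was 0.15 on the log2 scale with the microglia and endothelial levels as covariates (adjusted p = 0.968). Jag1, a ligand of the Serrate family, rose by 1.08 (SE 0.28, adjusted p = 0.00807) from a median of 35.5 to 75.4 CPM. The exception was Notch1-/- replicate 2 at 32.0 CPM, and the sign turned with the microglia and macrophage level held fixed (-0.18, adjusted p = 0.876).

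Dll3, a ligand that acts inside the sending cell, rose by 0.47 (SE 0.15, adjusted p = 0.0219), but not without control replicate 2 (0.0527). Dlk1, a ligand-like protein from an imprinted locus, rose by 2.52 (SE 0.79, adjusted p = 0.0225) with 0.52 to 30.5 CPM among the Notch1-/- libraries. Its call was lost without control replicate 2 (0.0527), 3 (0.0515) or 6 (0.0520) or Notch1-/- replicate 3 (0.0777). Lfng, a sugar transferase that alters which ligands a receptor answers to, fell by 1.55 (SE 0.45, adjusted p = 0.0158) from a median of 4.74 to 1.32 CPM. Without control replicates 1 and 6 its adjusted p was 0.0512.

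Nuclear partners of the receptors were among the rises. Maml2, a Mastermind coactivator, had 42.8, 72.5 and 90.8 CPM in controls and 105, 125 and 146 CPM in Notch1-/-, without overlap (0.79 ± 0.21, adjusted p = 0.0102). Maml1 (0.39 ± 0.12, adjusted p = 0.0225) and the corepressor Spen (0.66 ± 0.22, adjusted p = 0.0303) also passed. Both lost their call without control replicate 2, 3 or 6 or Notch1-/- replicate 3, and Spen also without Notch1-/- replicate 6. Their adjusted p-values then were at most 0.0595 for Maml1 and 0.0731 for Spen.

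Genes that mark the state of neural cells differed by stage. Trnp1, a nuclear protein of radial glia that affects their expansion, gave the clearest separation of the progenitor genes. It had 31.3, 37.4 and 49.5 CPM in controls and 2.07, 2.60 and 6.26 CPM in Notch1-/-. No library of the 2 genotypes came near the other group. Trnp1 fell by 3.50 on the log2 scale (SE 0.37, 11.3-fold, adjusted p = 3.71e-06), and with the microglia and macrophage level as a covariate the log2 fold change was -3.78 (adjusted p = 0.0283).

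Of 17 tested genes of neural stem and progenitor cells, 4 fell (Trnp1, Prom1, Fabp7 and Sox1) and 1 rose (Sox9, whose limits are given above), and the list's median was 0.12. The share called is close to the 26.7% of all genes. Under the microglia and macrophage covariate 1 fell, 0 rose and the median was -0.85. There were 4 rises without Notch1-/- replicate 2 and 3 without control replicate 4. Prom1, the stem cell surface protein also called CD133, went from a median of 90.7 CPM to 12.1 CPM (-2.20 ± 0.42, adjusted p = 0.0012), and its groups met only where the lowest control (31.4 CPM) lay under the highest Notch1-/- library (38.2 CPM). Sox1 (-1.55 ± 0.50, adjusted p = 0.0255) lost its call without control replicate 2 (0.0579) or 3 (0.0690) or Notch1-/- replicate 3 (0.0550) or 6 (0.0600).

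Proneural and early neuronal genes, which Hes and Hey proteins hold down, rose in 3 of 11 tested and fell in none, with a median of 0.62, where 13.2% of all genes rose. When the microglia and macrophage level was a covariate 0 of the 11 passed and the median was 0.23. Sox11, a factor of young neurons, had 34.8, 75.2 and 119 CPM in controls and 99.7, 183 and 256 CPM in Notch1-/- (1.23 ± 0.27, adjusted p = 0.00287). Sox4, its close relative, rose by 0.66 (SE 0.17, adjusted p = 0.00915) from a median of 47.3 to 73.2 CPM. For both, all 6 Notch1-/- libraries were above the control median, and the ranges overlapped. Elavl4, an RNA binding protein of neurons, passed at 0.71 ± 0.24 (adjusted p = 0.0297). Its call was lost without control replicate 2 (0.0561) or 3 (0.0746), without Notch1-/- replicate 1 (0.0700) or 3 (0.0585), and without control replicates 1 and 6 (0.0600).

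Genes of the oligodendrocyte precursor, the profile these tumours carry, stayed near their control level, where 26.7% of all genes passed. Of 18 tested, 1 rose and 0 fell, 4 had an unadjusted p under 0.05, DESeq2 called 3 and limma voom 3, and the median was 0.03 (0.06, with 0 calls, with the microglia and macrophage covariate). The 1 that rose was Sox6, which holds precursors in an immature state: 266 to 514 CPM in controls and 479 to 804 CPM in Notch1-/- (0.81 ± 0.18, adjusted p = 0.00332). The count of falls was 3 without Notch1-/- replicate 2 and 1 without Notch1-/- replicate 4. Pdgfra itself had a log2 fold change of -0.06 ± 0.26 (adjusted p = 0.89), and Sox10 one of 0.30 ± 0.21 (adjusted p = 0.291).

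Astrocyte genes fell in 11 of 20 tested, where 13.5% of all genes fell, and 8 of the 20 had libraries that did not overlap, as did 7.66% of all genes. The median was -1.18. Mlc1, a membrane protein of astrocyte endfeet, had 6.99, 12.5 and 20.0 CPM in controls and 0.681, 2.23 and 3.99 CPM in Notch1-/- (-2.58 ± 0.38, adjusted p = 0.000148). Glul, the glutamine synthetase of astrocytes, had 286, 434 and 474 CPM in controls and 137, 187 and 239 CPM in Notch1-/- (-1.07 ± 0.16, adjusted p = 0.000152). Neither gene's groups overlapped. Slc4a4, a bicarbonate transporter (-1.93 ± 0.30, adjusted p = 0.000227), and Id4, an inhibitor of basic helix-loop-helix factors (-1.95 ± 0.31, adjusted p = 0.000276), also separated fully. The exception in sign was Sox9. With the microglia and macrophage level as a covariate none of the 20 passed and the median was -0.92. The mean of the list did not overlap between the genotypes (4.98 to 5.56 and 3.76 to 4.34 on the log2 CPM scale).

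Genes of mature oligodendrocytes, the myelin-forming cells, fell in 12 of 16 tested, with a median of -1.78, where 13.5% of all genes fell. In the fit with the microglia and macrophage covariate 0 of the 16 passed and the median was -1.67. Mog, a myelin glycoprotein, had 202, 520 and 705 CPM in controls and 27.5, 57.0 and 236 CPM in Notch1-/- (-2.58 ± 0.60, adjusted p = 0.00429). The groups met at control replicate 4, the lowest control, and Notch1-/- replicate 2, the highest of its group. Aspa (-2.61 ± 0.62, adjusted p = 0.00477), Opalin (-2.57 ± 0.62, adjusted p = 0.00521) and Mal (-2.46 ± 0.67, adjusted p = 0.0102) are also genes of myelinating cells. They fell too, with overlap for Aspa and Opalin and none for Mal. The summed level of the list was 10707 to 27986 CPM in controls and 2599 to 22295 CPM in Notch1-/-, where replicate 2 was far above the next Notch1-/- library. The count of 12 was 7 without control replicate 2, control replicate 3 or Notch1-/- replicate 4, 6 without Notch1-/- replicate 1, 3 or 6, and 5 without control replicates 1 and 6.

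**Figure D3:**
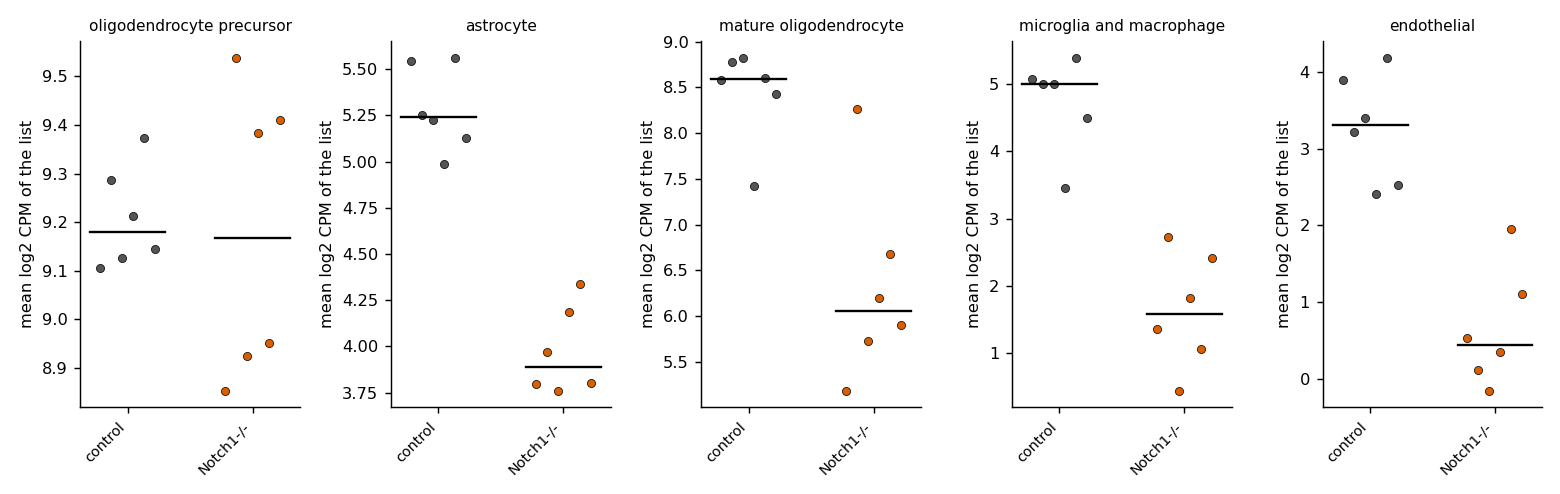
Mean log2 CPM of the tested genes of 5 cell type lists in each of the 12 libraries; each point is a library and each line the median of its genotype, and the vertical axes differ in range. Precursor genes overlap between the genotypes, and astrocyte, microglia and endothelial genes do not. In the mature oligodendrocyte panel 1 Notch1-/- library, replicate 2 at 8.26, lies among the controls.

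The largest rises were mixed in kind and uneven between libraries. By size they were Gdpd3, Hmga2, Rps2, Hfm1, H19, Chrm3, Vgf, Sh2d5, Tiam2, Ntng1, Serpina3n, Dlk1, Zfp967, Zfp966 and Lancl3. Rps2 has near-identical copies, and Zfp966 and Zfp967 have the same count in every library, so these 3 are uncertain and get no value here. The call of Vgf, a secreted neuronal protein, was kept only without control replicate 4 or Notch1-/- replicate 2, 4 or 5 and lost in the other 8 such fits, and that of Sh2d5 was lost without Notch1-/- replicate 1 (0.0582). Hfm1, a helicase known from meiosis, rose in every library: 0.484, 0.641 and 1.17 CPM in controls and 5.34, 8.22 and 11.1 CPM in Notch1-/- (3.48 ± 0.46, 11.1-fold, adjusted p = 5.85e-05). The groups were far apart.

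Gdpd3, a lysophospholipase, rose by 5.73 (SE 0.81, 53.2-fold, adjusted p = 8.44e-05). It had 0.338 to 0.648 CPM in controls and 16.1 to 59.5 CPM in 5 Notch1-/- libraries, while Notch1-/- replicate 3 had 0.348 CPM, a control level. Its log2 fold change was 8.85 with the microglia and macrophage level as a covariate (adjusted p = 0.0014), and with the endothelial level added the adjusted p was 0.0996. Chrm3, a muscarinic acetylcholine receptor, rose by 3.15 (SE 0.66, adjusted p = 0.00204) with 0.362 to 2.06 CPM in controls and 0.875 to 22.4 CPM in Notch1-/-. Tiam2, an exchange factor for Rac (2.89 ± 0.61, adjusted p = 0.00217), and Serpina3n, a protease inhibitor of reactive glia (2.74 ± 0.69, adjusted p = 0.00657), also varied widely among the Notch1-/- libraries. Lancl3 rose by 2.47 (SE 0.56, adjusted p = 0.00359), to 9.31 to 43.6 CPM in Notch1-/-. In Chrm3, Tiam2 and Serpina3n 5 of 6 Notch1-/- libraries exceeded the control median, and in Lancl3 6 of 6 did.

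Fetal and imprinted genes were among these rises. Of 15 tested on that list, 5 rose (H19, Hmga2, Meg3, Dlk1 and Grb10) and 0 fell, and the median was 0.41. Among all genes 13.2% rose. Under the microglia and macrophage covariate 0 passed and the median was 0.08. Hmga2, a chromatin protein of embryonic and tumour cells, had 1.92, 4.03 and 52.9 CPM in controls and 3.8, 118 and 364 CPM in Notch1-/- (3.59 ± 0.98, adjusted p = 0.0107). H19, an imprinted long RNA, had 0.843 to 9.11 CPM and 3.35 to 169 CPM (3.28 ± 0.88, adjusted p = 0.00965), and Meg3, another, 11.8 to 125 CPM and 88.8 to 271 CPM (1.59 ± 0.47, adjusted p = 0.0173). Each of these overlapped between the genotypes. The calls of all 3 were lost without control replicates 1 and 6 (0.0571 for Hmga2, 0.0576 for H19 and 0.1 for Meg3), when the list had 0 rises. Leaving out control replicate 2, 3 or 6 or Notch1-/- replicate 3 left 3 rises. There was 1 fall without control replicate 4, and there were 2 without Notch1-/- replicate 5.

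**Figure D4:**
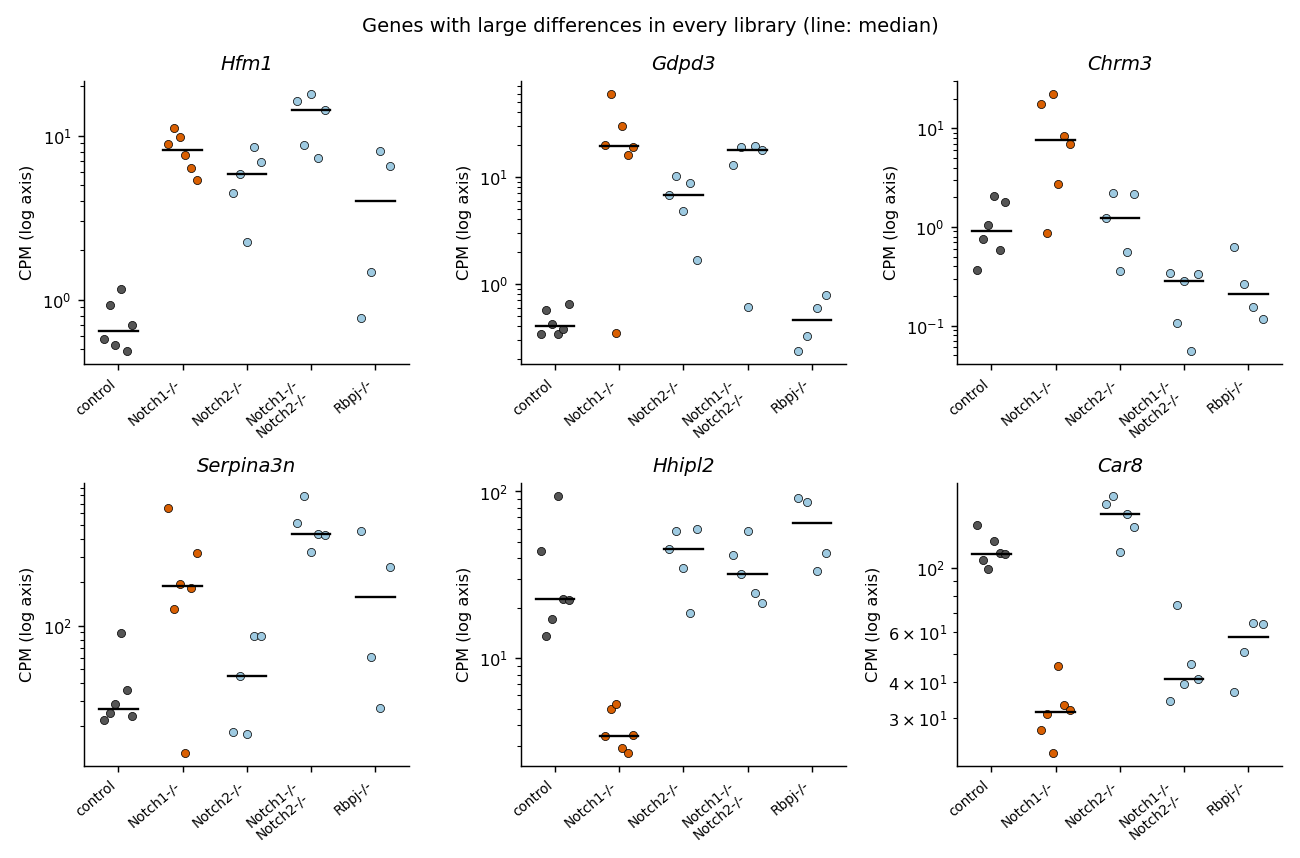
Expression of Hfm1, Gdpd3, Chrm3, Serpina3n, Hhipl2 and Car8 in each of the 26 libraries by genotype, in CPM on a log axis; each point is a library and each line the median of its genotype. Hfm1, Hhipl2 and Car8 separate the 6 Notch1-/- libraries (orange) from the 6 controls (grey), whereas for Gdpd3 Notch1-/- replicate 3 lies at the control level.

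The largest falls were Ttr, Ly6a, Ly6c1, Trem2, Ccl3, Slco1a4, Ccl4, Gpr34, Fcrls, Lyz2, Slco1c1, Fcgr3, Vtn, Trnp1 and Ctss. Except for Trnp1 they are best known from cells other than glioma cells. Ttr, the thyroid hormone carrier of the choroid plexus, had 6.32 to 290 CPM in controls and 0 to 3.61 CPM in Notch1-/- (-5.93 ± 1.58, adjusted p = 0.00943; 0.0628 without control replicates 1 and 6). Of the genes of brain endothelium, Slco1a4 fell by 4.02 (SE 0.62, adjusted p = 0.000197), Slco1c1 by 3.76 (SE 0.45, adjusted p = 2.2e-05), Ly6c1 by 4.23 (SE 0.58, adjusted p = 6.27e-05) and Ly6a by 4.63 (SE 1.14, adjusted p = 0.00592). Vtn, a gene of pericytes, fell by 3.51 (SE 0.52, adjusted p = 0.000148).

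Microglia and macrophage genes fell in 20 of 21 tested, with a median of -3.03 and no overlap for 13 of the 21. Among all genes 13.5% fell and 7.66% had no overlap. Without control replicates 1 and 6 the falls numbered 20. The covariate fit takes its level from these same genes and so does not bear on them. Trem2, a lipid receptor of microglia, had 4.30, 14.7 and 20.1 CPM in controls and 0.333, 0.757 and 1.14 CPM in Notch1-/- (-4.19 ± 0.48, adjusted p = 1.42e-05). P2ry12, an ATP receptor of resting microglia (-3.12 ± 0.43, adjusted p = 6.27e-05), and Gpr34 (-3.98 ± 0.51, adjusted p = 4.35e-05) separated as fully. None of the 21 genes was at 0 in any of the 12 libraries. Control replicate 4 had the lowest mean of its group for the list, 3.45 on the log2 CPM scale, where the other controls had 4.5 to 5.39.

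Chemokines and cytokines, many of them made by microglia, fell in 13 of 23 tested (median -2.32) and rose in none. Among all genes 13.5% fell. When the microglia and macrophage level was a covariate 0 passed and the median was -0.09. Ccl3 had 4.84 to 55.3 CPM in controls and 0.253 to 5.88 CPM in Notch1-/- (-4.04 ± 0.65, adjusted p = 0.000271), and Ccl4 fell by 4.00 (SE 0.60, adjusted p = 0.000166). Lyz2, the lysozyme of myeloid cells (-3.84 ± 0.65, adjusted p = 0.00042), and Ctss, a lysosomal protease (-3.49 ± 0.61, adjusted p = 0.000564), fell with them. Held against the microglia and macrophage level, Ccl3 had a log2 fold change of -0.16 and Lyz2 of -0.04, and neither passed. Ctss is on the list that this level is taken from, so the covariate fit does not bear on it.

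Endothelial genes fell in 13 of 15 tested, with a median of -2.36, where 13.5% of all genes fell. Mural and fibroblast genes fell in 5 of 14 (12 of 14 without Notch1-/- replicate 5), with a median of -0.90. With the microglia and macrophage level as a covariate none of either list passed, and the medians were -1.69 for endothelial and -2.56 for mural and fibroblast genes. One endothelial gene rose without Notch1-/- replicate 2 and likewise without replicate 4. Tek, the angiopoietin receptor of vessels, had 2.22, 4.53 and 10.2 CPM in controls and 0.158, 0.399 and 0.998 CPM in Notch1-/- (-3.66 ± 0.49, adjusted p = 5.85e-05). Abcb1a, a pump of the blood-brain barrier, fell by 2.36 (SE 0.36, adjusted p = 0.000177), and Rgs5 of pericytes by 3.26 (SE 0.50, adjusted p = 0.000181). Their groups did not overlap. In the mural list Notch1-/- replicate 5 was the exception, with a mean of 4.26 on the log2 CPM scale against 0.59 to 1.67 in the other Notch1-/- libraries.

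Genes of antigen presentation and of the interferon response had few calls, all of them falls, and wide spread within both genotypes. Among all genes 13.5% fell. Of 22 class I genes, 0 passed with edgeR, 0 had an unadjusted p under 0.05, and DESeq2 and limma voom called 0. B2m, the light chain of class I, had 246 to 8121 CPM in controls and 95.1 to 5180 CPM in Notch1-/- (-0.99 ± 0.89, adjusted p = 0.408). Of 10 MHC class II genes 0 rose and 2 fell, with a median of -0.78, and the falls numbered 1 without control replicate 2, 3, 5 or 6 or Notch1-/- replicate 1, 3, 4, 5 or 6. These were H2-Oa (-3.62 ± 0.98, adjusted p = 0.0102) and H2-Ob (-2.16 ± 0.80, adjusted p = 0.0478), which form the DO molecule that tempers peptide loading. Of 27 type I interferon response genes 1 fell, Ifi27 (-0.95 ± 0.32, adjusted p = 0.0314), and the median was -0.22. The falls there numbered 0 without control replicate 2, 3 or 6 or Notch1-/- replicate 3 or 5 and 2 without Notch1-/- replicate 2. Of 29 interferon gamma response genes 0 rose and 2 fell, with a median of 0.28. With the microglia and macrophage level as a covariate no gene of these 4 lists passed. The medians were then 2.29 for class I, 4.43 for class II, 1.87 for type I interferon and 3.55 for interferon gamma genes. For class I the median without the covariate was -0.26. The reason for these shifts was not tested. The falls of the interferon gamma list numbered 0 without control replicate 3 and 1 without control replicate 2, 5 or 6 or Notch1-/- replicate 1, 3, 4, 5 or 6.

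Genes of the cell cycle had few calls, and these depended on single libraries. Of 30 tested, 5 rose (Cenpe, Top2a, Foxm1, Mki67 and Cenpf) and 0 fell, with a median of 0.44, where 13.2% of all genes rose. In the fit with the microglia and macrophage covariate 0 passed and the median had the other sign (-0.27). Mki67, the proliferation marker, had 40.9, 236 and 493 CPM in controls and 164, 674 and 811 CPM in Notch1-/- (1.35 ± 0.46, adjusted p = 0.0325). Notch1-/- replicate 2 held the 164 CPM, far under the other 5 libraries of its group. Without that library 19 of the 30 rose. Without control replicate 2 none did, and without control replicate 3, Notch1-/- replicate 3 or Notch1-/- replicate 6 there was 1. There were 2 without control replicate 5 or 6 or Notch1-/- replicate 4, or without control replicates 1 and 6, and 3 without Notch1-/- replicate 1. Cenpe, a kinesin of mitosis, rose by 1.46 (SE 0.46, adjusted p = 0.0228), with an adjusted p of 0.0551 without control replicate 2 and 0.0636 without control replicates 1 and 6. The call of Mki67 was lost in 7 of the 12 fits that left out a library, with adjusted p-values up to 0.0750: those without control replicate 2, 3 or 6 and those without Notch1-/- replicate 1, 3, 4 or 6.

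Among D cyclins and inhibitors of cyclin-dependent kinases, 2 of 12 rose: Ccnd1, described above, and Cdkn1b, which encodes the inhibitor p27. This is close to the 13.2% of all genes that rose. Under the microglia and macrophage covariate 0 passed, and the list's median was -0.42 where it had been 0.37. The count was 6 without Notch1-/- replicate 2. Cdkn1b had 75.2, 96.1 and 108 CPM in controls and 111, 121 and 141 CPM in Notch1-/-. The groups did not overlap although the difference was small (0.40 ± 0.11, 1.32-fold, adjusted p = 0.0091).

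Genes induced by p53 are of interest because every tumour lacked Trp53. Of 16 tested, 5 fell and 1 rose, and the median was -0.10, where 13.5% of all genes fell and 13.2% rose. When the microglia and macrophage level was a covariate 0 passed and the median was 0.01. Pmaip1, a pro-apoptotic gene also called Noxa, had 2.01, 5.45 and 7.63 CPM in controls and 0.349, 0.714 and 1.96 CPM in Notch1-/- (-2.67 ± 0.45, adjusted p = 0.000381). Perp, a membrane protein of apoptosis and adhesion (-1.50 ± 0.33, adjusted p = 0.00288), and Phlda3, an inhibitor of Akt (-0.93 ± 0.22, adjusted p = 0.0049), were also without overlap. The count of falls was 3 without control replicate 2 or Notch1-/- replicate 1, 3 or 6, and without control replicates 1 and 6. The gene that rose, Sesn2, lost its call in 6 of the 12 fits, those without control replicate 1, 2 or 6 or Notch1-/- replicate 1, 3 or 6, and there were 2 rises without Notch1-/- replicate 4.

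The stress list had a share of calls close to the 26.7% of all genes. The hypoxia list had a share of falls close to the 13.5% of all genes and no rises, where 13.2% of all genes rose. Single members are given. Of 22 immediate early and stress genes, 4 fell and 2 rose. Once the microglia and macrophage level was a covariate 0 passed, and the median was -0.14 where it had been 0.22. The rises numbered 4 without control replicate 4 or Notch1-/- replicate 2 and 1 without Notch1-/- replicate 6 or without control replicates 1 and 6. Zfp36, which destabilises cytokine messages, fell by 2.00 (SE 0.36, adjusted p = 0.000649), and Atf3, a stress factor, by 2.29 (SE 0.50, adjusted p = 0.00286). Both had log2 fold changes of the other sign with the microglia and macrophage level as a covariate (0.05 and 0.38). Btg2, which slows division, fell by 0.95 (SE 0.22, adjusted p = 0.00451), whereas Jun, a part of AP-1, rose by 0.65 (SE 0.16, adjusted p = 0.00588) from 78.7 to 101 CPM in controls to 99.6 to 198 CPM in Notch1-/-. Of 18 hypoxia genes 3 fell and 0 rose, with a median of -0.28 (1 fell, median -0.57, with the covariate). Ndrg1, a gene of hypoxia and of myelinating cells, had 61.1, 144 and 172 CPM in controls and 6.26, 18.4 and 57.1 CPM in Notch1-/- (-2.47 ± 0.52, adjusted p = 0.00219). Ddit4, an inhibitor of mTOR, fell by 0.69 (SE 0.18, adjusted p = 0.00893).

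Genes of cholesterol synthesis, a pathway that myelin formation draws on, fell in 7 of 20 and rose in none, with a median of -0.41, where 13.5% of all genes fell. In the fit with the microglia and macrophage covariate 0 passed and the median was -0.68. Msmo1, a sterol oxidase, had 269, 364 and 423 CPM in controls and 130, 165 and 249 CPM in Notch1-/- without overlap (-0.99 ± 0.19, adjusted p = 0.00133). Fdps, which makes farnesyl diphosphate, fell by 0.77 (SE 0.20, adjusted p = 0.0072), and Fdft1, squalene synthase, by 0.51 (SE 0.15, adjusted p = 0.0171; 0.0676 without control replicates 1 and 6). The count was 11 without Notch1-/- replicate 5, 4 without control replicate 1 or Notch1-/- replicate 1, 2 or 6, 3 without control replicate 3 and 2 without control replicates 1 and 6. The mature oligodendrocyte genes were lower in the same libraries, and their part in this was not tested.

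Single receptors and guidance molecules changed in either direction. Of 25 axon guidance genes 4 rose and 4 fell, shares close to those of all genes (13.2% and 13.5%), the median was 0.02 (-0.09, with 0 calls, with the covariate), and no single library moved either count by more than 1.5 times. Slit1, a repellent ligand, had 2.29, 3.22 and 4.84 CPM in controls and 5.50, 11.0 and 16.8 CPM in Notch1-/- (1.71 ± 0.30, adjusted p = 0.000533), without overlap. Its receptor Robo1 fell by 1.08 (SE 0.27, adjusted p = 0.00627). Unc5d, a netrin receptor, rose by 1.81 (SE 0.49, adjusted p = 0.00989), and the ephrin Efnb3 fell by 1.28 (SE 0.29, adjusted p = 0.00395). Among 23 glutamate receptor and synaptic genes 3 fell, close to the 13.5% of all genes, and the median was 0.19 (-0.17, with 0 calls, with the covariate). These were the AMPA receptor Gria1, from 12.6 to 26.5 CPM down to 2.55 to 8.34 CPM (-2.23 ± 0.43, adjusted p = 0.00109), the metabotropic receptor Grm3 (-2.64 ± 0.50, adjusted p = 0.0011) and the NMDA receptor subunit Grin2c (-2.27 ± 0.57, adjusted p = 0.00695). The kainate receptor Grik3 rose, but did not pass without control replicate 2 or 6 or Notch1-/- replicate 3 (highest adjusted p 0.0610, without control replicate 6). Rises on the list numbered 2 without Notch1-/- replicate 2 and 3 without control replicate 4.

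In the BMP and Id list, Smad9, which carries BMP signals, rose by 0.80 (SE 0.18, adjusted p = 0.0035) without overlap between the groups. Bmp2, a BMP ligand, fell by 0.98 (SE 0.30, adjusted p = 0.0189; 0.0533 without control replicate 2). Of 14 genes on the list 1 rose and 3 fell, with a median of -0.13 (0.08, with 0 calls, with the covariate). Together these calls are a share close to the 26.7% called among all genes. Falls numbered 1 without control replicate 2, and rises 2 without Notch1-/- replicate 2 or control replicate 4. Of 20 genes of the mesenchymal glioma profile, 3 fell, close to the 13.5% of all genes, and 1 rose. The median was -0.26 (-0.34, with 0 calls, with the covariate). Chil1, a secreted chitinase-like protein, had 6.03, 8.12 and 9.65 CPM in controls and 2.23, 2.82 and 4.55 CPM in Notch1-/- (-1.37 ± 0.28, adjusted p = 0.00162), and S100a4, a calcium binding protein, fell by 1.49 (SE 0.36, adjusted p = 0.00535). Without Notch1-/- replicate 5 the falls on the mesenchymal list numbered 8 and without control replicate 3 they numbered 2. The gene that rose, Tnc, lost its call without control replicate 2, 3, 5 or 6 or Notch1-/- replicate 1 or 3, and there were 2 rises without control replicate 4 or Notch1-/- replicate 2.

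**Figure D5:**
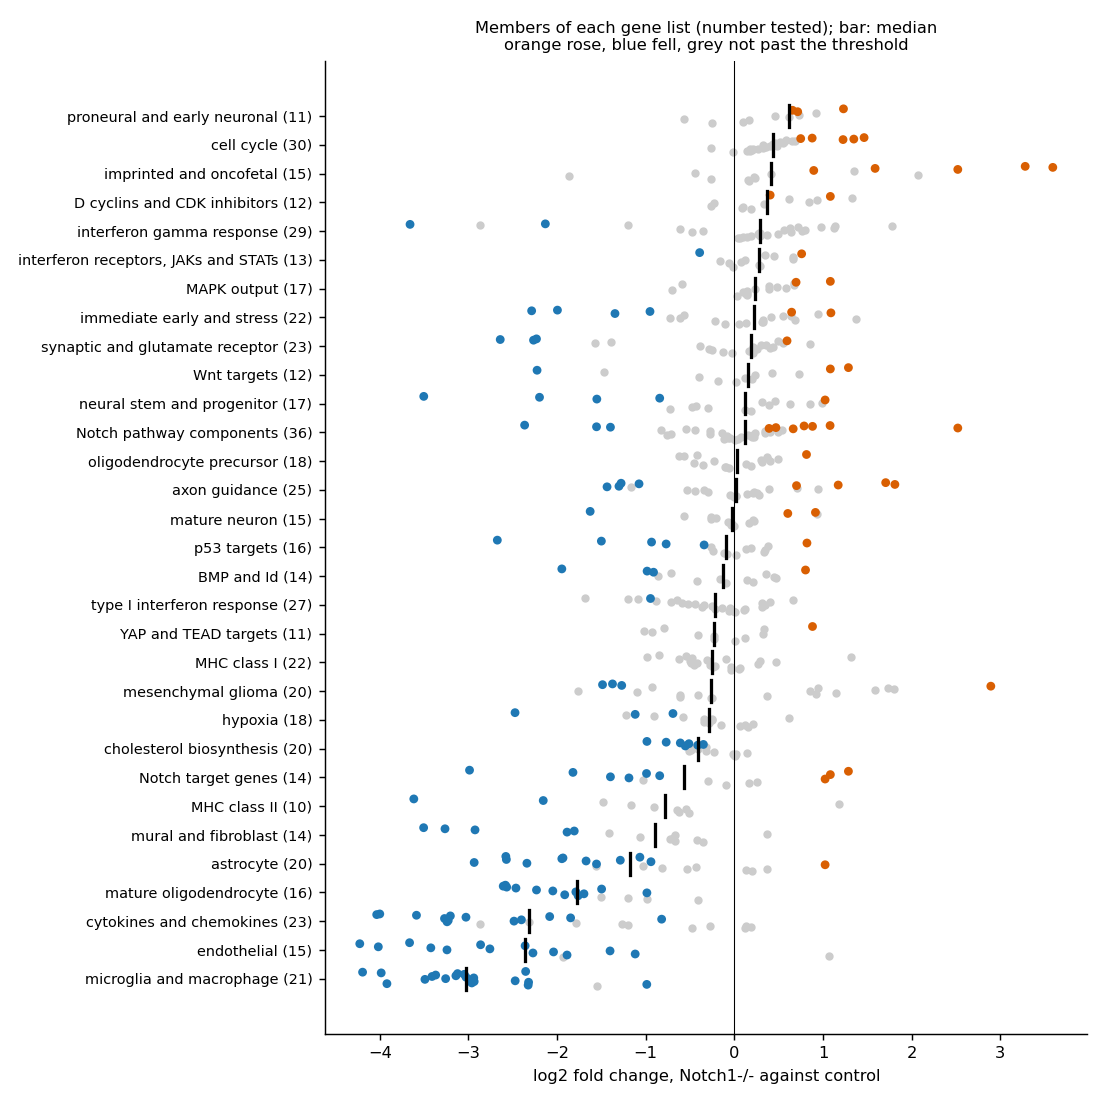
Log2 fold change of Notch1-/- against control (horizontal axis) for the tested members of each gene list with at least 10 tested, with the number tested in brackets. Each point is a gene, orange where it rose, blue where it fell and grey where it did not pass, and each bar is the list's median. The lists run from proneural and early neuronal genes (median 0.62) at the top to microglia and macrophage genes (median -3.03) at the bottom.

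The loss of Notch1 was next set against the other genotypes by direct contrasts in the same fit. No control library is compared in them, but the controls share in the filter, the scaling and the estimate of spread. Against Notch2-/-, 482 genes differed (3.09%), 131 higher in Notch1-/- (0.839%) and 351 lower (2.25%). Of the 9 Notch targets that changed against control, Hes5, Nrarp, Hey1, Hes1 and Myc were among them. Hes5 was lower in Notch1-/- by 3.64 on the log2 scale (SE 0.41, adjusted p = 1.27e-05), at 0.312 to 0.705 CPM where Notch2-/- had 2.38 to 8.54 CPM. Nrarp (-2.38 ± 0.32, adjusted p = 0.00011), Lfng (-2.57 ± 0.48, adjusted p = 0.00288) and Trnp1 (-2.89 ± 0.37, adjusted p = 7.13e-05) were lower too. Myc was higher in Notch1-/- by 1.18 (SE 0.22, adjusted p = 0.00289). The astrocyte genes Mlc1 (-2.52 ± 0.39, adjusted p = 0.000525) and Slc4a4 (-2.20 ± 0.31, adjusted p = 0.000215) differed the same way, as did the microglia gene P2ry12 (-3.14 ± 0.43, adjusted p = 0.000159) and the endothelial gene Tek (-3.44 ± 0.49, adjusted p = 0.000227). Leaving out any 1 of the 11 libraries of these genotypes kept each of the calls given so far with values. The mean log2 CPM of the microglia and macrophage genes did not overlap here either (0.43 to 2.72 in Notch1-/-, 3.12 to 4.43 in Notch2-/-). The direct contrasts were not fitted with that level as a covariate. Hey1 (adjusted p = 0.0211) lost its call without Notch1-/- replicate 1, Notch1-/- replicate 3, Notch2-/- replicate 3 or Notch1-/- replicate 6, with adjusted p-values up to 0.0630. Hes1 (adjusted p = 0.0187) lost its call without Notch1-/- replicate 1 or Notch2-/- replicate 1, with adjusted p-values up to 0.0542. Notch2, whose gene lies at chr3:98013538-98150367, was lower in Notch2-/- (6.14 to 8.58 CPM) than in Notch1-/- (11.4 to 18.1 CPM; 1.02 ± 0.16, adjusted p = 0.000398). The count of 482 was 275 without Notch1-/- replicate 1, 284 to 310 without Notch2-/- replicate 3, 4 or 5, and 841 without Notch1-/- replicate 5.

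Against Notch1-/-Notch2-/-, in which both receptors are lost, 100 genes differed (0.64%), 48 higher (0.307%) and 52 lower (0.333%) in Notch1-/-. None of the 9 Notch targets that changed against control was among them. The difference in Hes5 was -0.29 ± 0.40 (adjusted p = 0.808), in Nrarp 0.22 ± 0.31 (adjusted p = 0.816) and in Trnp1 1.13 ± 0.37 (adjusted p = 0.202), and a test that is not passed does not show equal levels. Chrm3 was higher in Notch1-/- by 5.43 (SE 0.81, adjusted p = 0.00145), where the double mutants had 0.0546 to 0.341 CPM. Unc5d (3.70 ± 0.57, adjusted p = 0.00178) and Mtus1, a microtubule-associated tumour suppressor (2.07 ± 0.27, adjusted p = 0.000373), were also higher. These 3 calls held in all 11 fits that left out a library. The count of 100 ranged from 18 without Notch1-/-Notch2-/- replicate 2 to 199 without Notch1-/-Notch2-/- replicate 3. It was 25 to 57 without Notch1-/-Notch2-/- replicate 1, 4 or 5 or without Notch1-/- replicate 1, 3, 4, 5 or 6.

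Against Rbpj-/-, which lacks the DNA binding partner of all Notch receptors, 41 genes differed (0.263%), 22 higher (0.141%) and 19 lower (0.122%) in Notch1-/-. Hes5 had 0.489 to 1.87 CPM in Rbpj-/- and the difference was -1.35 ± 0.41 (adjusted p = 0.273), and Nrarp had 12.9 to 24.3 CPM, more than any Notch1-/- library, with a difference that did not pass (-1.42 ± 0.33, adjusted p = 0.0668). Trnp1 had 1.18 to 4.08 CPM there (0.41 ± 0.39, adjusted p = 0.701). Gdpd3 was higher in Notch1-/- by 5.61 (SE 0.97, adjusted p = 0.0101), and lost the call without Rbpj-/- replicate 1 (0.0724) or 2. Chrm3 was higher by 5.06 (SE 0.87, adjusted p = 0.0101), and lost it without Rbpj-/- replicate 2 or 4 (0.0584 for replicate 4). The count of 41 was 7 without Rbpj-/- replicate 1, 12 and 13 without Rbpj-/- replicates 2 and 4, 20 to 24 without Notch1-/- replicate 1, 4 or 6, and 77 without Notch1-/- replicate 5.

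Among genes chosen after their values were seen, Hhipl2 set Notch1-/- apart from all 4 other genotypes. It had 2.71, 3.45 and 5.31 CPM in Notch1-/- (lowest, median, highest) against 13.6, 22.6 and 94.5 CPM in controls, and no Notch1-/- library reached the lowest library of any other genotype. The log2 fold change was -3.23 ± 0.44 against control (adjusted p = 6.27e-05), -3.51 ± 0.45 against Notch2-/- (adjusted p = 7.13e-05), -3.23 ± 0.45 against Notch1-/-Notch2-/- (adjusted p = 0.00063) and -4.06 ± 0.47 against Rbpj-/- (adjusted p = 5.46e-05). Leaving out any library of the genotypes compared kept each call, and so did the fit with the microglia and macrophage level as a covariate against control (-4.46, adjusted p = 0.0014). Car8, a carbonic anhydrase relative without enzyme activity, had 99.1, 113 and 142 CPM in controls and 22.6, 31.4 and 45.5 CPM in Notch1-/- (-1.87 ± 0.19, adjusted p = 2.29e-06). It was lower than in Notch2-/- by 2.24 (SE 0.19, adjusted p = 1.83e-07), and its differences from Notch1-/-Notch2-/- (-0.56 ± 0.19, adjusted p = 0.218) and Rbpj-/- (-0.76 ± 0.20, adjusted p = 0.148) did not pass.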

How the data were processed

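RNA of GFP-sorted glioma cells was extracted with TRIzol, made into libraries with a TruSeq Stranded kit and sequenced on a NextSeq 500, per the labels' protocols. The authors deposited whole-number counts per gene. STAR and mm10 are named in the submitters' processing notes. Which tool counted the reads, on which annotation and with which strand setting, is not stated there, so antisense and overlapping genes may share reads. Genes were matched by Entrez identifier to RefSeq's GRCm38.p6 table (24374 of 24454). The 80 unmatched, with 0.348% of counts, entered the filter and the fit by their identifier and were left out only when genes were named. Columns of samples left unused numbered 0.

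The deposited counts of all 26 libraries were fitted with edgeR 4.0.16 (R 4.3.3) by genotype alone: genes too low in every genotype were filtered by edgeR's default, which left 15617, libraries were scaled by TMM, and the quasi-likelihood test was adjusted by the Benjamini-Hochberg method at 0.05. Fold changes are on the log2 scale with a standard error computed from the same fit; CPM is the count scaled to the TMM-adjusted size of its library, and marker means use log2 CPM with a prior count of 2. Counts were simulated for 15477 genes, each drawn independently, with 200 of them changed in Notch1-/-. The test against control recovered 14.9% of 1.5-fold, 61.2% of 2-fold and 92.4% of 4-fold changes. Of 114 calls there, 2 were false (1.75%). A far larger share of genes was called in the data, so these rates need not hold for them. Libraries of a genotype were checked for duplicates, and none of 30 pairs matched within sampling noise. Alternatives used DESeq2 1.42.0, limma 3.58.1, other scaling, filters, covariates, a block by replicate number and fits without single libraries. The fits with 2 marker covariates and without control replicates 1 and 6 were chosen after seeing the data.

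The libraries, gene lists and tests were chosen with earlier results of these data known. Genes named are the deleted genes, the 15 largest rises and 15 largest falls past the threshold (mean log2 CPM of at least 1, at least 5 of 6 Notch1-/- libraries on 1 side of the control median, predicted genes and sex-linked markers left out), each member of the Notch lists that passed, and of every other list up to 4 members with the smallest adjusted p or, where none passed, 2 with the highest expression. Pdgfra, Olig2, Sox10, Hhipl2, Car8, Mtus1, Grb10 and Cenpf are outside that rule and were added after their values were seen. Same-numbered Notch1-/- and control libraries did not deviate together (correlations -0.13 to 0.31), so replicate numbers were not used to pair them. Some genes are not reported here.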

Additional observations from a re-analysis of the deposited data

Results flagged for a closer look

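In 94 genes and 2 genotypes, 188 groups of 6 libraries were searched for a library far from the others, measured as its gap to the nearest library over the whole range of the group on the log2 scale. Chance gives such a library in about 1 in 20 groups, and there were 14. No explanation was tested for any of them.

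Notch1-/- replicate 2 was the low library for 5 genes. The gap took up 0.627 of the range for Fabp7, 0.668 for Sox9, 0.651 for Jag1, 0.807 for Cenpe and 0.858 for Mki67, which had 164 CPM there and 646 to 811 CPM in the other Notch1-/- libraries. Notch1-/- replicate 3 was low for Gdpd3 (0.733) and for Ly6c1 (0.633).

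Control replicate 4 was the low control for Ly6c1 (0.684), Lyz2 (0.734), Zfp36 (0.647), Mog (0.672) and Aspa (0.731), and the high one for Serpina3n (0.653), at 89.0 CPM where the other controls had 22.0 to 35.8 CPM. Control replicate 3 was high for Trp53 (0.642).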

How the results depend on the processing

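Genes that differed between Notch1-/- and control numbered 6907 with limma voom, 12 with the microglia and macrophage level as a covariate, 4 with the endothelial level added and 2064 without control replicates 1 and 6, against 4174. Leaving out single libraries gave 2815 (without control replicate 3) to 5290 (without control replicate 4), and the block by replicate number 3884. For the direct contrasts, DESeq2 called 284 genes against Notch1-/-Notch2-/-, 1099 against Notch2-/- and 132 against Rbpj-/-. The replicate block gave 28, 300 and 20, and leaving out single libraries 18 to 199, 275 to 841 and 7 to 77. Replicate numbers did not pair the libraries: 2 of 6 Notch1-/- libraries correlated best with the control of their own number. With the microglia and macrophage covariate the log2 fold change turned sign for Dlk1 (-0.19), Ly6a (0.015), Ctss (0.58), Ccnd1 (-0.19), Jag1 (-0.18), Zfp36 (0.0501) and Atf3 (0.38). With both covariates it did for Dlk1 (-0.11), Ly6c1 (0.16), Ccl3 (0.34), Lyz2 (0.64), Ctss (0.21), Ccnd1 (-0.24), Dll4 (0.15), Elavl4 (-0.0065), Zfp36 (0.26) and Atf3 (0.34). The cause was not tested, and the microglia and macrophage level does not overlap between the genotypes. Ctss is on the microglia and macrophage list and Ly6c1 on the endothelial list. The covariates made from those lists therefore do not bear on them. Of 85 called genes examined, 81 lost the call with the first covariate, 83 with both, 16 without control replicates 1 and 6, and 0 to 10 in each other fit. The 85 include members of those lists, such as Trem2, P2ry12 and Tek, whose loss under their own covariate is built in. With the stricter filter (10 CPM in at least 4 libraries) 69 of the 85 kept the call, 1 lost it and the rest were not tested.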
